A study of Homo sapiens with 6 samples.

Results

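The epithelial-mesenchymal transition (EMT) genes described here are 10 regulators and markers chosen by gene symbol: the cadherins CDH1 and CDH2, the cytoskeletal and matrix genes VIM and FN1, and the transcription factors SNAI1, SNAI2, ZEB1, ZEB2, TWIST1 and TWIST2. Of these 10 genes, 9 were found among the 30618 genes with counts, and SNAI2 was not analysed here. They were measured by RNA-seq in ARPE-19, an established line of human retinal pigment epithelial cells, kept in 50 mM glucose as a cell model of diabetic retinopathy. The NC group received a non-targeting control siRNA and the siEIF1 group an siRNA against EIF1, a translation initiation factor that takes part in the choice of the start codon, with 3 biological replicates in each group. Both groups carried the high glucose, so the comparison concerns EIF1 knockdown within high glucose only. All libraries came from 1 cell line, and 1 EIF1 siRNA sequence is given in the methods.

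In EMT, epithelial cells lose their junctions and polarity and take on a mesenchymal, motile state. E-cadherin, encoded by CDH1, holds epithelial cells together at adherens junctions, and its loss is a hallmark of EMT, often with a gain of N-cadherin (CDH2), vimentin (VIM) and fibronectin (FN1). SNAI, ZEB and TWIST proteins are the core EMT transcription factors, which bind E-boxes such as those of the CDH1 promoter. Retinal pigment epithelial cells can undergo EMT when they leave the monolayer or are grown in culture, and the process is known from fibrotic disease of the retina.

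The libraries held from 26499929 to 31431479 counts, and 16749 genes passed the filter on low counts and were tested. EIF1 itself had FPKM values (fragments per kilobase of gene, scaled to the mapped fragments of the library) of 294, 281 and 281 in the NC group and of 24.3, 22.7 and 23.5 in the siEIF1 group, which is 12.0-fold lower by the fit (log2 fold change -3.58, SE 0.055, adjusted p = 1.08e-13, by edgeR's quasi-likelihood test, with p-values adjusted by the Benjamini-Hochberg method over all tested genes; adjusted p-values below are of this kind unless another tool is named). Of 16 retinal pigment epithelium markers in the files, 7 had a mean FPKM over 1, among them OTX2 (17.8 in the NC group), MITF (5.84) and BEST1 (66.0), while the visual cycle gene LRAT was at 0.12 and the pigment gene TYR at 0.00667, genes chosen after their values were seen. RPE65 was not analysed here. Overlapping genes were looked up for the EMT genes only, not for markers such as BEST1. The strand setting of the counts is not given in the sources used here, so reads of an overlapping gene could enter these values. Of 12 tested markers 2 rose, RLBP1 and BSG, which is 16.7% against 20.6% of all tested genes, a share near the background. RLBP1 rose by over 2-fold at a low level, from 0.27, 0.17 and 0.27 FPKM to 0.69, 0.62 and 0.73. Its log2 fold change was 1.55 (edgeR, Benjamini-Hochberg adjusted p = 0.00102), and that of BSG was 0.17 (adjusted p = 0.0265 by the same test). BEST1 had FPKM values of 70.8, 66.6 and 60.5 in the NC and 62.1, 55.0 and 38.8 in the siEIF1 group, which overlap, and its log2 fold change of -0.32 did not pass (edgeR, unadjusted p = 0.0293, Benjamini-Hochberg adjusted p = 0.106). The summed FPKM of the list was 497 to 501 in the NC and 505 to 518 in the siEIF1 libraries. Its largest parts were BSG (238 in the NC group) and EZR (119), so the sum says little of the other markers. The part of these markers in the results was not tested. The summed FPKM of the endothelial, blood cell and neural retina markers stayed at or below 0.26, 0.06 and 0.44 in every library.

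The mesenchymal EMT genes VIM, CDH2 and FN1 were well expressed in these cells, and E-cadherin was close to absent in both groups. VIM rose by 1.23-fold and FN1 by 1.17-fold after EIF1 knockdown. CDH2, TWIST1, ZEB1 and ZEB2 did not pass the test, and CDH1, SNAI1 and TWIST2 were too low to be tested. In counts, 2 of the 6 tested EMT genes passed an adjusted p of 0.05 by edgeR, both higher in the siEIF1 group, against 20.6% of all tested genes (10.2% higher and 10.4% lower). At an unadjusted p under 0.05, 3 were higher and 0 lower, a limit at which no share of all genes was taken. DESeq2 had 2 higher and 0 lower, against 1409 higher and 1510 lower over all genes. It was given all 30618 genes with counts, without the edgeR filter, so its shares cannot be set beside those by edgeR. None of the 6 moved by more than 2-fold, and 0 did with DESeq2, against 1.71% of all tested genes that passed both limits by edgeR. The groups did not overlap for 4 of the 6 genes (VIM, FN1, CDH2 and TWIST1), against 37.1% of all tested genes. The median log2 fold change was 0.067 over the 6 genes and 0.0033 over all tested genes. Without siEIF1 replicate 3, 4 genes passed, with CDH2 higher and ZEB1 lower in addition to VIM and FN1. With limma on FPKM 1 gene passed, VIM. Over all genes, 3472 passed without siEIF1 replicate 3, and from 1397 to 2171 in the limma fits.

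**Figure D1:**
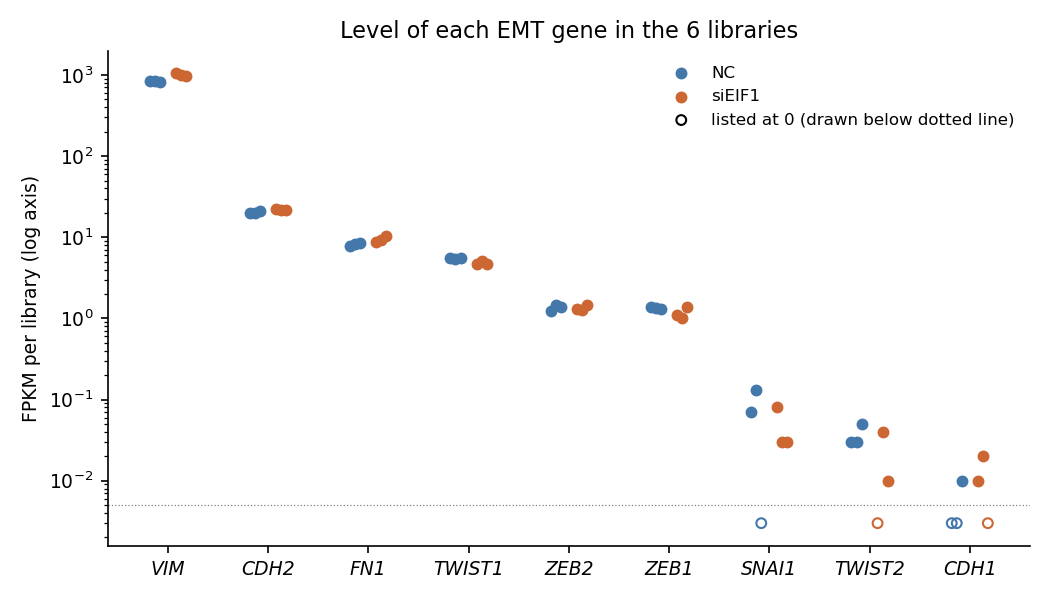
FPKM of the 9 EMT genes in each of the 3 NC (blue) and 3 siEIF1 (orange) libraries, on a log axis, ordered by mean level; open circles below the dotted line are libraries in which the gene is listed at 0. VIM stands between 813 and 1049, CDH2, FN1 and TWIST1 between 4.64 and 22.2, the ZEB genes near 1, and SNAI1, TWIST2 and CDH1 at or below 0.13.

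Per length, VIM was the highest of the 9 genes, with an FPKM from 813 to 1049 over the 6 libraries and rank 32 among all genes with an FPKM. CDH2 followed with 19.6 to 22.2, then FN1 with 7.84 to 10.3 and TWIST1 with 4.64 to 5.62. None of these 4 ranges overlapped its neighbour, and the mean of VIM was 43.6 times that of CDH2. ZEB2 (1.22 to 1.47) and ZEB1 (1.02 to 1.40) overlapped and could not be ordered. Below them, SNAI1 (0 to 0.13), TWIST2 (0 to 0.05) and CDH1 (0 to 0.02) also overlapped each other. Levels between genes depend on the length used. The deposited FPKM matched the summed length of all annotated exons within 5% for 93.1% of 5567 well expressed genes. For ZEB2 that length is 26151 bases, against 9265 for its canonical transcript. Divided by canonical transcript lengths instead, ZEB2 came to 3.83 and ZEB1 to 1.83 on the FPKM scale.

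The promoters of the mesenchymal genes with the highest levels, VIM, CDH2 and FN1, are shown with that of ZEB1, which holds E-boxes of the kind that SNAI and ZEB proteins bind. Each sequence is the 250 bases before a RefSeq transcription start (GRCh38.p14), written 5′ to 3′ on the strand of the gene. VIM lies at chr10:17227991-17228240 on the forward strand, CDH2 at chr18:28177131-28177380 and FN1 at chr2:215436069-215436318 on the reverse strand, and ZEB1 at chr10:31318966-31319215 on the forward strand. Capitals mark letters searched on both strands: E-boxes (CANNTG, which takes in CACCTG and its reverse CAGGTG), the cAMP response element TGACGTCA, CCAAT or ATTGG, and the GC box GGGCGG or CCGCCC.
VIM: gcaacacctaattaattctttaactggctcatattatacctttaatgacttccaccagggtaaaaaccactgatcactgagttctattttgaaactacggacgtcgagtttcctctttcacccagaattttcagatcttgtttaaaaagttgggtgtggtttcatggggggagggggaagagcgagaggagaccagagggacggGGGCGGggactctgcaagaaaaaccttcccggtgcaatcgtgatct
CDH2: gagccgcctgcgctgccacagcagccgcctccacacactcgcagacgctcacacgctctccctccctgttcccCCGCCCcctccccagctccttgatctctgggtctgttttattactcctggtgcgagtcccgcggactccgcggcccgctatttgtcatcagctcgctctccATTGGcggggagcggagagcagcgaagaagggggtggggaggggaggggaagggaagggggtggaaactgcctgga
FN1: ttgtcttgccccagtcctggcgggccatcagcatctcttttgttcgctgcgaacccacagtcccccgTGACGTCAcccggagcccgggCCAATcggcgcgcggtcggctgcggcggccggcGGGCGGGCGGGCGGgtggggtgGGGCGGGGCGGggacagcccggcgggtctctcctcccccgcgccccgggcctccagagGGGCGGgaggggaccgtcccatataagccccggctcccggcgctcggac
ZEB1: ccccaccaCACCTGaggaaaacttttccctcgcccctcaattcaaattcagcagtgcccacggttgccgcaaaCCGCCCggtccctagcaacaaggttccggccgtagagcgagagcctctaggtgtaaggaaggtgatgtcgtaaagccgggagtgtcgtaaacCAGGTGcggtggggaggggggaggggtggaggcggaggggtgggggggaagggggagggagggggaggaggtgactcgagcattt
The VIM window held 1 GC box, which begins 46 bases before the start, and no E-box letters. This window lies before the outermost annotated start of VIM (chr10:17228241), and no window at a start further inside the gene was searched. FN1 held TGACGTCA at 183 bases and CCAAT at 162 bases before the start and 6 GC boxes, some of which overlap. CDH2 held ATTGG at 76 and CCGCCC at 177 bases before the start. ZEB1 held CACCTG at 242 and CAGGTG at 85 bases before the start, and CCGCCC at 177. RefSeq gives ZEB1 7 windows, of which this one was chosen for its E-boxes, and CDH2 a further window, which holds CAGATG. Of all 35116 promoter windows of this length, 61.8% held CANNTG, 17.5% CACCTG or CAGGTG, 1.65% TGACGTCA, 32.0% CCAAT or ATTGG and 42.6% GGGCGG or CCGCCC. A match describes letters in the window only, and no binding was measured.

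VIM (ENSG00000026025.16, chr10:17228241-17237593, forward strand) encodes vimentin, the intermediate filament protein of mesenchymal cells. Its counts were 140825, 151927 and 143325 in the NC group and 208381, 187732 and 183986 in the siEIF1 group. In FPKM these were 837, 837 and 813 against 1049, 985 and 983. Every siEIF1 library lay above every NC library, and the spread within a group was small beside the step between them (829 ± 13.7 and 1006 ± 37.2, SD, n = 3). The log2 fold change was 0.30 (SE 0.054, 95% interval 0.18 to 0.42), with an adjusted p of 0.00164 from edgeR with the Benjamini-Hochberg method. As a fold this is 1.23, with an interval from 1.13 to 1.33. In such bulk libraries, more RNA per cell and more cells that express a gene cannot be told apart. VIM took 0.514% to 0.537% of all counts in the NC and 0.618% to 0.663% in the siEIF1 libraries, where it ranked 8th or 9th of all genes by count, against 10th or 11th in the NC group. It passed the test under each of the 14 alternatives run, with a log2 fold change from 0.27 to 0.33.

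A pair of genes lies on the opposite strand over VIM, and the strand setting of the deposited counts is not given in the sources used here, so their reads cannot be told apart from those of VIM. VIM-AS1 had from 1.92% to 2.27% as many counts as VIM and a log2 fold change of 0.26 (edgeR, Benjamini-Hochberg adjusted p = 0.0355). RP11-124N14.3 had counts of 5170, 5906 and 5062 in the NC and 8281, 6872 and 5166 in the siEIF1 group, where the groups overlap (log2 fold change 0.22, edgeR, Benjamini-Hochberg adjusted p = 0.212). With the counts of both added to its own, VIM had a log2 fold change of 0.30 (edgeR, Benjamini-Hochberg adjusted p = 0.00218).

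FN1 (ENSG00000115414.21, chr2:215360440-215436073, reverse strand) encodes fibronectin, a glycoprotein of the extracellular matrix. Its counts were 4387, 4953 and 4939 in the NC group and 5787, 5881 and 6411 in the siEIF1 group, and its FPKM values 7.84, 8.21 and 8.43 against 8.76, 9.28 and 10.3. The groups did not overlap, but the highest NC and the lowest siEIF1 library lay close together, and the siEIF1 libraries were spread more widely (8.16 ± 0.298 and 9.45 ± 0.783, SD, n = 3). FN1 rose by a log2 fold change of 0.23 (SE 0.056, 95% interval 0.11 to 0.35, fold 1.17), with an adjusted p of 0.0101 from edgeR with the Benjamini-Hochberg method. It passed with each library left out in turn (0.18 to 0.28). On FPKM, limma gave 0.19 to 0.21 on the log2 scale with a pseudocount and adjusted p-values from 0.0929 to 0.170, which do not pass.

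CDH2 (ENSG00000170558.10, chr18:27932879-28177946, reverse strand) encodes N-cadherin, the cadherin of mesenchymal and neural cells. Its counts were 5480, 6038 and 6151 in the NC group and 7317, 6752 and 6783 in the siEIF1 group, and its FPKM values 19.6, 20.1 and 21.1 against 22.2, 21.4 and 21.9. All siEIF1 libraries lay above all NC libraries by a narrow margin (20.3 ± 0.723 and 21.8 ± 0.427, SD, n = 3). The log2 fold change was 0.13 (SE 0.046, 95% interval 0.029 to 0.23, fold 1.09), and the adjusted p of 0.0653 by edgeR with the Benjamini-Hochberg method did not pass. Over the alternatives the adjusted p ran from 0.0396 to 0.182, and it passed without siEIF1 replicate 3 (0.14, adjusted p = 0.0456 by the same edgeR test).

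CDH1 (ENSG00000039068.20, chr16:68737292-68835537, forward strand), the gene of E-cadherin, had 0, 0 and 2 counts in the NC group and 2, 5 and 1 in the siEIF1 group. With so few counts no library stands clearly above another, and the groups overlap. The totals of 2 and 8 counts gave a ratio of 3.64 after division by the library totals, with an exact 95% interval of 0.726 to 35.2, which covers counting error only and includes 1. A count of 0 allows up to 3 counts, or about 0.113 CPM (counts scaled to library size) in NC replicate 1. No ratio of CDH2 to CDH1 was formed, since CDH1 is listed at an FPKM of 0 in 3 libraries.

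**Figure D2:**
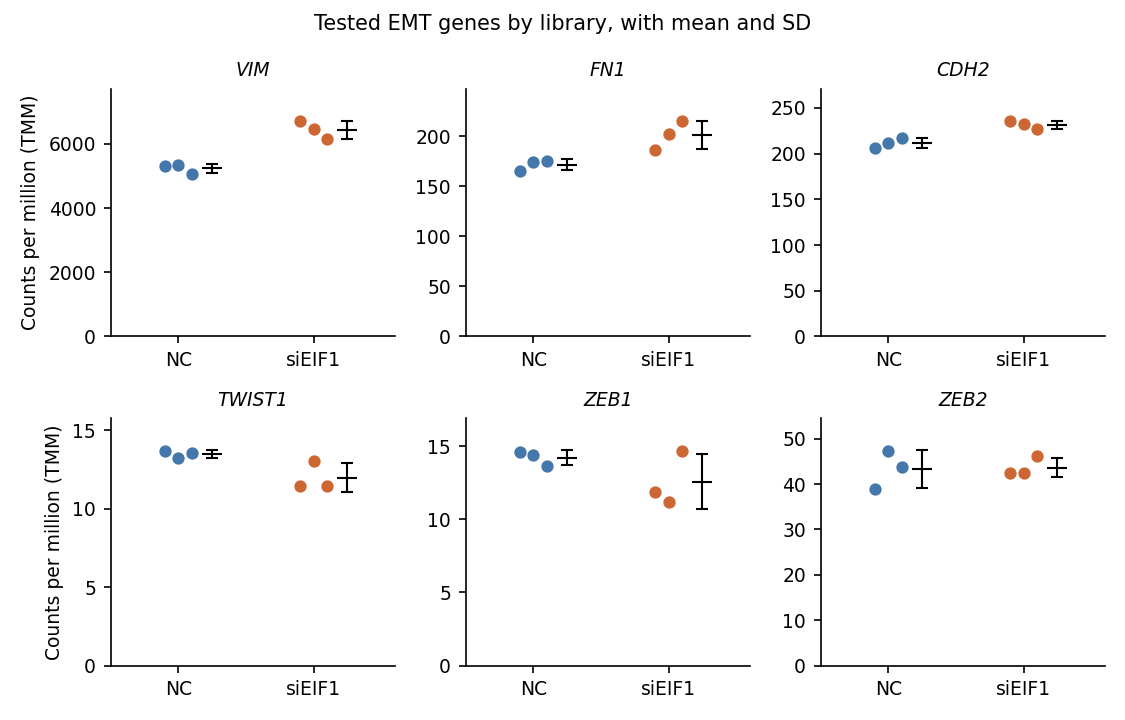
CPM (counts scaled to TMM-adjusted library size) of the 6 tested EMT genes in each library (points), with the mean and SD of each group (bars, n = 3) and axes from 0. The siEIF1 libraries lie above the NC libraries for VIM, FN1 and CDH2 and below them for TWIST1, and the groups overlap for ZEB1 and ZEB2.

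Among the transcription factors, TWIST1 (ENSG00000122691.13, chr7:19020991-19117636, reverse strand), a basic helix-loop-helix factor, had the highest level per length. Its counts were 364, 376 and 382 in the NC group and 356, 379 and 341 in the siEIF1 group, and its FPKM values 5.61, 5.37 and 5.62 against 4.64, 5.15 and 4.72. In FPKM, all siEIF1 libraries lay below all NC libraries, with siEIF1 replicate 2 close to the NC group. The log2 fold change of -0.17 (SE 0.082, 95% interval -0.35 to 0.0049) had an adjusted p of 0.166 by edgeR with the Benjamini-Hochberg method. No alternative brought it past the test, with adjusted p-values from 0.0765 to 0.342.

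ZEB1 (ENSG00000148516.23, chr10:31318495-31529814, forward strand) encodes a zinc finger and homeobox repressor of CDH1. Its counts were 388, 410 and 385 in the NC group and 369, 325 and 439 in the siEIF1 group, and its FPKM values 1.38, 1.35 and 1.31 against 1.11, 1.02 and 1.40. The groups overlap through siEIF1 replicate 3, which was the highest of all 6 libraries, while the other siEIF1 libraries were the lowest. By edgeR with the Benjamini-Hochberg method, the log2 fold change was -0.17 (SE 0.0995, 95% interval -0.39 to 0.040) with an adjusted p of 0.250. Without siEIF1 replicate 3 it was -0.30, with an adjusted p of 0.0253 by the same edgeR test, so 1 library decided this call. ZEB1-AS1, which overlaps ZEB1 on the opposite strand, had 192, 185 and 191 counts in the NC and 244, 195 and 218 in the siEIF1 group (log2 fold change 0.095, edgeR, Benjamini-Hochberg adjusted p = 0.584), and its reads too could be split with those of ZEB1.

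ZEB2 (ENSG00000169554.22, chr2:144364364-144521057, reverse strand), the paralog of ZEB1, had counts of 1036, 1349 and 1238 in the NC group and of 1318, 1233 and 1376 in the siEIF1 group. Its FPKM values of 1.22, 1.47 and 1.39 enclosed those of the siEIF1 group, at 1.31, 1.28 and 1.46. The log2 fold change was 0.0070 (SE 0.071, 95% interval -0.15 to 0.16, edgeR, Benjamini-Hochberg adjusted p = 0.963), an interval of 0.904 to 1.12 as a fold. The log2 ratio of ZEB1 to ZEB2 FPKM was 0.18, -0.12 and -0.086 in the NC and -0.24, -0.33 and -0.061 in the siEIF1 libraries. These groups overlap, and the difference of -0.20 between their means had p = 0.3 in a two-sided exact permutation test, whose smallest possible p with 3 libraries against 3 is 0.1.

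SNAI1 (ENSG00000124216.4, chr20:49982980-49988886, forward strand), the zinc finger repressor Snail, had 4, 8 and 0 counts in the NC group and 5, 2 and 2 in the siEIF1 group. TWIST2 (ENSG00000233608.4, chr2:238848032-238910534, forward strand), the paralog of TWIST1, had 2, 2 and 3 counts against 0, 3 and 1. Both overlapped between the groups and lay under the filter on low counts. The ratio of siEIF1 to NC, after the same division, was 0.682 for SNAI1, with an exact 95% interval from 0.254 to 1.76. For TWIST2 it was 0.520, with an interval from 0.112 to 2.04. No change of either gene was detected, and both intervals, which cover counting error only, include 1. By counting error alone, a rise beyond 1.76-fold for SNAI1 or 2.04-fold for TWIST2 lies outside them.

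**Figure D3:**
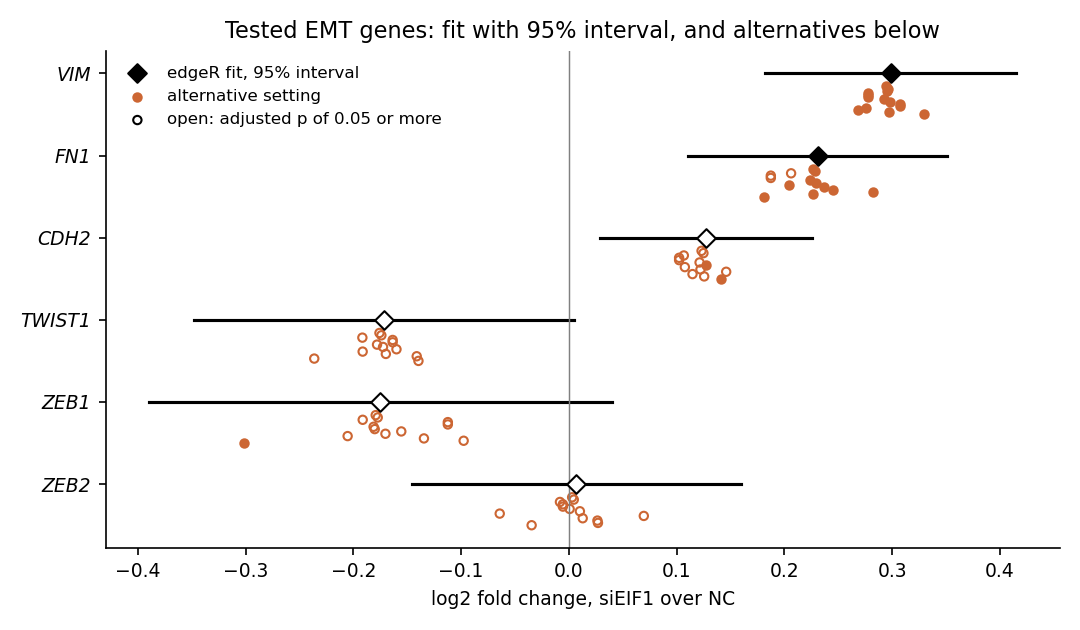
Log2 fold change (siEIF1 over NC) of the 6 tested EMT genes: diamonds are the edgeR fit with its 95% interval, and circles below each are the alternative settings, filled where the adjusted p is under 0.05. VIM is filled throughout, FN1 in all but the 3 limma fits on FPKM, CDH2 in 2 settings and ZEB1 in 1, and ZEB2 lies on both sides of 0.

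The epithelial program was examined through 35 junction, polarity and keratin genes in the files. Of these, 17 had a mean FPKM over 1 and 26 were tested. The untested genes lay under the filter on low counts, so the list was expressed only in part. Of the 26 tested, 11 rose and 0 fell (42.3%, against 20.6% of all tested genes), and their median log2 fold change was 0.24. At an unadjusted p under 0.05, 13 were higher and 1 lower, a limit at which no share of all genes was taken. DESeq2, given all 35 genes without that filter, also had 11 higher and 0 lower. Over all 30618 genes with counts it had 1409 higher and 1510 lower. KRT18, a keratin of simple epithelia, had FPKM values of 319.5, 333 and 327 in the NC and 390 (replicate 1), 384 and 372 in the siEIF1 group (log2 fold change 0.25, adjusted p = 0.00442). Its partner KRT8 rose by 0.24 (adjusted p = 0.00950) and KRT7 by 0.22 (adjusted p = 0.0409) on the log2 scale, both by edgeR with the Benjamini-Hochberg method. KRT7 kept its call in 2 of 6 fits with a library left out, and KRT8 in 4. Desmosome and junction genes also rose, namely JUP (plakoglobin, 0.57), F11R (a tight junction adhesion molecule, 0.42), PKP2 (plakophilin, 0.32) and DSP (desmoplakin, 0.30). Each of these 4 passed with any library left out. CLDN1, a tight junction claudin, was at -0.16 (adjusted p = 0.194) and CTNNA1, the adherens junction protein alpha-catenin, at -0.061 (adjusted p = 0.427), and neither passed by edgeR. The number of genes of this list that passed went from 11 to 7 without NC replicate 1. With limma on FPKM without a filter, 3 passed. Over all genes, 3446 passed by edgeR, 2356 without NC replicate 1 and 1397 in that limma fit.

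Vimentin and keratins, which form the intermediate filaments of mesenchymal and epithelial cells, stood side by side at high levels. The log2 ratio of VIM to KRT18 FPKM was 1.39, 1.33 and 1.32 in the NC and 1.43, 1.36 and 1.40 in the siEIF1 libraries. These overlap, with a difference of 0.051 between the means (two-sided exact permutation test, p = 0.2, adjusted p = 0.6 over 3 ratios). For KRT8 and KRT7 the difference was 0.058 and 0.069, with p = 0.4 and p = 0.6 in the same exact permutation test. These 3 ratios were chosen after the values were seen.

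Of 32 mesenchymal and myofibroblast genes in the files, 20 had a mean FPKM over 1 and 23 were tested. The others lay under the filter on low counts, so the list was expressed only in part. Of the 23 tested, 10 rose and 3 fell (56.5%, against 20.6% of all tested genes), with a median log2 fold change of 0.20. ACTA2, the smooth muscle actin of myofibroblasts, had FPKM values of 11.3, 12.7 and 12.0 in the NC and 18.6, 19.4 and 18.1 in the siEIF1 group, without overlap. Its log2 fold change was 0.66 (adjusted p = 9.43e-06), close to those of the matrix gene FBN1 (0.66, adjusted p = 7.80e-05) and the gelatinase MMP2 (0.65, adjusted p = 1.00e-05) in edgeR with the Benjamini-Hochberg method. The matrix glycoprotein gene SPARC (0.21) and NT5E, which encodes the surface enzyme CD73 (0.32), also rose, and these calls held in 3 and 2 of the 6 fits with a library left out. In the other direction, LOX, the collagen crosslinking enzyme, had FPKM values of 45.6, 37.8 and 41.6 in the NC and 31.0, 27.0 and 32.3 in the siEIF1 group, and fell by 0.45 on the log2 scale. Other contractile genes of the list did not rise with ACTA2. TAGLN fell by 0.39 on the log2 scale (edgeR, Benjamini-Hochberg adjusted p = 0.0167). MYL9 was at 0.083 (adjusted p = 0.579 by the same edgeR test) and did not pass, and CNN1 lay under the filter on low counts. CCN2, a matricellular protein gene, was at -0.16 and the receptor tyrosine kinase gene AXL at -0.017, and neither passed. The summed FPKM of the list was 1031 to 1109 in the NC and 973 to 1049 in the siEIF1 libraries, which overlap. Such a sum is set mostly by the genes of highest level, and does not show how many genes rose or fell.

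Other EMT transcription factors and their partners were divided. Of 29 tested genes, 6 rose and 2 fell (27.6%, against 20.6% of all tested genes), and the median log2 fold change was -0.0063. TCF3, whose E proteins pair with TWIST factors, had FPKM values of 6.60, 6.51 and 6.84 in the NC and 10.1, 10.2 and 10.7 in the siEIF1 group (log2 fold change 0.66, edgeR, Benjamini-Hochberg adjusted p = 1.32e-06). These groups lie far apart beside their spread. SOX9 (0.41) and ID1 (0.37), an inhibitor of basic helix-loop-helix factors, rose as well, as did its relative ID3 (0.74). KLF4, an activator of CDH1, fell by 0.53 and EZH2, the histone methyltransferase of Polycomb complex PRC2, fell by 0.63 on the log2 scale. HDAC1, a deacetylase recruited by Snail, rose by 0.18, a call that held in 2 of the 6 fits with a library left out. FOXQ1 (0.078) and the ZEB corepressor gene CTBP1 (-0.027) did not pass.

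TGF-beta signaling, a main inducer of EMT, was represented by 26 tested genes, among them BMP receptors and inhibitors of the pathway. Of these 26, 7 rose and 1 fell (30.8%, against 20.6% of all tested genes), with a median log2 fold change of 0.086. Counts over such a mixed list give no direction of signaling. TGFB3 was the one gene of the 4 lists that passed with a change of over 2-fold, from 0.16, 0.25 and 0.24 FPKM to 0.51, 0.56 and 0.44 (log2 fold change 1.23, edgeR, Benjamini-Hochberg adjusted p = 7.97e-04), at a level far below that of TGFB1 (20.9 in the NC group) and TGFB2 (35.0). TGFB1 rose by 0.16, which held in 1 of 6 fits with a library left out, and TGFB2 was at 0.10 (adjusted p = 0.319, by the same edgeR test). LTBP2 (0.64) and LTBP3 (0.37), of the latent TGF-beta binding protein family, and the BMP receptor BMPR2 (0.33) rose. The SMAD corepressor TGIF1 fell by 0.39. BAMBI, a decoy receptor, was at -0.11 and did not pass.

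**Figure D4:**
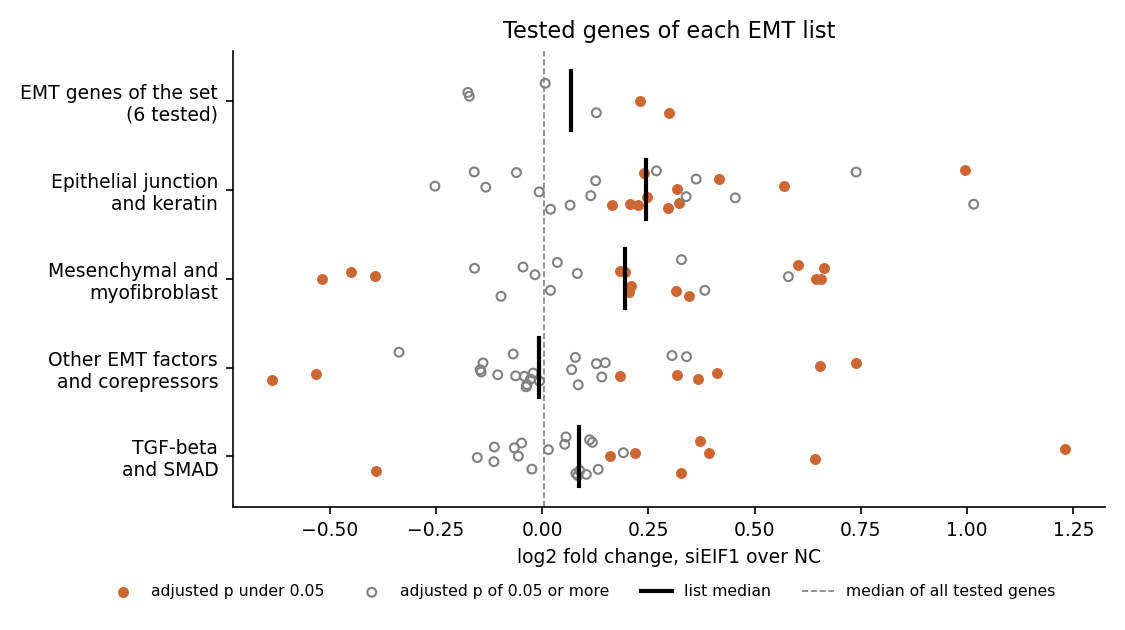
Log2 fold change (siEIF1 over NC) of each tested gene in the set of EMT genes and the 4 related lists; filled points passed an adjusted p of 0.05, thick bars are list medians and the dashed line is the median of all tested genes. The epithelial and the mesenchymal lists both have medians above 0 (0.24 and 0.20), and the other EMT factors have theirs at -0.0063.

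The genes whose level followed VIM most closely over the 6 libraries were DAP (Pearson's r of 0.9975), RP11-422P24.14 (0.9962) and RNF130 (0.9956), out of 8027 tested genes that averaged 500 counts or more. The correlation was taken on log2 CPM, and the 6 libraries fall into the 2 groups, so these values describe genes that moved with the group as VIM did.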

How the data were processed

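ARPE-19 RNA was sequenced as strand-specific paired-end libraries of captured mRNA. The authors trimmed reads with FASTX-Toolkit, aligned them to GRCh38 with HISAT2, and deposited counts of uniquely mapped reads per gene without normalization. FPKM values were deposited as well, rounded to 2 decimals. The counting program and its strand setting are not given in the sources used here. Groups came from the sample titles, and 0 columns were unmatched.

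Counts were tested with edgeR 4.0.16 (TMM, filterByExpr, quasi-likelihood test, Benjamini-Hochberg adjustment over 16749 genes) in R 4.3.3, with no covariate. A gene passed at an adjusted p under 0.05. Intervals cover 95%. Depth limits the low genes: a count of 0 allows 3 counts per library. Gene positions and lengths came from GENCODE release 44. Exact permutation tests used scipy 1.17.1. The edgeR test with and without a replicate block, DESeq2, and limma on log2(CPM + 1) were checked on simulated counts. The limma fits on FPKM, RLE normalization and the fit without a filter were not. Alternatives were RLE normalization, no filter, DESeq2 1.42.0, limma 3.58.1 on log2(FPKM + 1) or log2(FPKM + 0.1), a replicate block and leaving out each library. VIM with its antisense counts was added after seeing the data.

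The EMT genes, lists and tests were chosen with earlier results of these data known. Named are all EMT genes, EIF1, the 5 genes per list with the smallest p and the 5 with the highest FPKM, and the 3 genes most like VIM. An item that falls under this rule is not reported here by name. The retinal and other cell type markers named to check the cell line were picked after their values were seen. TAGLN, MYL9 and CNN1 were likewise named beside ACTA2 after their values were seen.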

Additional observations from a re-analysis of the deposited data

How the results depend on the processing

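Of the EMT genes 2 passed by edgeR, and 1 did in each of the 3 limma fits on FPKM (log2(FPKM + 1), log2(FPKM + 0.1) and log2(FPKM + 1) without a filter). In the same 3 fits the epithelial list had 6, 6 and 3 genes that passed in place of 11, and the mesenchymal list 8, 7 and 5 in place of 13. Without a filter, limma gave 5 in place of 8 for the other EMT factors and 4 in place of 8 for the TGF-beta list. Over all genes 2171, 2169 and 1397 passed in these fits, against 3446 by edgeR and 2919 by DESeq2, and the calls past 2-fold went from 286 to 20, 191 and 20. The cause was not tested. With each library left out in turn, from 2 to 4 EMT genes, 7 to 13 epithelial genes, 9 to 12 mesenchymal genes, 7 to 9 other factors and 6 to 8 TGF-beta genes passed. Over all genes, from 2242 (without siEIF1 replicate 2) to 3472 (without siEIF1 replicate 3) passed in these fits. The 4 EMT genes passed without siEIF1 replicate 3 and the 7 epithelial genes without NC replicate 1.

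The sign of ZEB2 turned to -0.0055 with limma on log2(FPKM + 1), with and without a filter, to -0.0082 with a pseudocount of 0.1, to -0.064 without NC replicate 1 and to -0.035 without siEIF1 replicate 3 (range -0.064 to 0.070 with each library left out), and it passed in none of these. VIM and TWIST1 kept their direction and their side of the threshold in every alternative run. The ZEB1 to ZEB2 ratio kept its direction with each library left out (-0.27 to -0.10).

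The replicate numbers are not said to mark a shared culture. Deviations of same-numbered libraries correlated at 0.149, 0.095 and 0.128, which is not over 0.1 in every pair, though each library correlated best with its own number. With the replicate block 3 EMT genes passed (CDH2 in addition, log2 fold change 0.13, edgeR, Benjamini-Hochberg adjusted p = 0.0396), and 4277 genes of all. With the block the lists had 13 epithelial, 14 mesenchymal, 12 other EMT factor and 9 TGF-beta genes that passed. Genes with few counts, such as CDH1, SNAI1 and TWIST2, are limited by depth.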
